A study of Mus musculus with 13 samples.

Results

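Tumor tissue was compared with normal colorectal tissue of the same line of mice, both from animals given a control microRNA. The members were chosen by their titles: 7 arrays of tumor tissue and 2 arrays of normal tissue of CPC-Apc mice, 9 of the 13 arrays in the series. CPC-Apc mice have the genotype CDX2P-NLS Cre;Apc+/loxP, in which a Cre recombinase driven by a CDX2 promoter deletes the floxed copy of Apc in cells where that promoter is active, so the normal epithelium can carry it too and is not a wild-type control. All 9 samples, and the 4 others of the series, carry this genotype. Mice received 24 tail vein injections, 3 a week from 8 weeks of age, of a negative control microRNA carried on super carbonate apatite, a pH-sensitive carrier particle. The titles of these 9 arrays name only the genotype, and the control injection is given by their short descriptions and the treatment text. At sacrifice colorectal tissue was divided into tumor and normal tissue, and the age at sacrifice and the place along the bowel are not given in the labels. Total RNA of each sample was labelled with Cy3 and hybridised to a 1-colour Agilent mouse array. The other 4 arrays hold 2 normal and 2 tumor tissues of mice that received the therapeutic microRNA mixture (miR-200c, miR-302 -a, -b, -c and -d, and miR-369 -3p and -5p), and the same difference in them is given below. These 4 arrays enter the fit of the control comparison through its shared estimate of the spread.

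Apc is a scaffold of the complex that marks beta-catenin for destruction when no Wnt signal is present. When a cell loses both working copies, beta-catenin stays in the nucleus with TCF/LEF factors and keeps transcribing Wnt target genes, many of which encode inhibitors of the pathway itself. In the mouse intestine this starts adenomas, which carry a crypt-like, proliferating epithelium and draw in stroma and leukocytes.

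A level is the log2 of an array's processed signal minus the log2 of that array's 75th percentile, so 0 is the brightness of the 75th percentile probe. The levels of a gene are given for both normals and as the lowest, the highest and the median of the tumors, and a difference is the tumor mean minus the normal mean with its standard error (SE) from the fit over all genes. A gene was called when its p-value from limma, adjusted by Benjamini-Hochberg over all 25356 genes tested, was under 0.05. The number of arrays limits the precision: there are 7 tumors and 2 normals, the spread is pooled with that of the 4 arrays of microRNA-treated mice, and nothing in the labels says that the samples came from separate animals, so p-values measure only the spread between the 13 arrays. With the 9 control arrays alone 4175 genes were called in place of 4842. Where a gene was well above background in only some arrays of a group, the signals of the other arrays lie at background and its difference is not exact. Of the genes named, apart from uncalled ones given without a level, this holds in 1 of the 2 normals for Apcdd1, C3ar1, Defa26, Dkk2, Epgn, Hpgds, Mmp9, Mmp10, Neb, Onecut2, Prox1 and R3hdml.

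Both normals lay on slide 2 with tumor 3, and the other 6 tumors lay on slide 1. The 75th percentile signal was between 214 and 740 on the 9 arrays, and between 51.3% and 56.8% of probes were well above background. Apc itself was -1.12 and -1.72 in the normals and -1.58 to -1.26 (median -1.44) in the tumors, so the groups overlapped; the probe need not lie in the deleted part and does not check the deletion. The names of the array files carry a number whose meaning the labels do not give: tumors 1 and 2 share 5, tumors 4 to 7 share 6, normal 2 and tumor 3 share 10, and normal 1 has 9. If the number marks an animal, several tumors came from the same animal and the p-values are too small; with the number as a random block 3418 genes were called in place of 4842. Normal 2 and tumor 3 were the only arrays of the 13 with Xist signal and without signal of Y-linked genes. The normals also held RNA of skin, hair and skeletal muscle, described with those genes below.

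Of the 25356 genes tested, 4842 (19.1%) were called, 2077 higher in tumors (8.19%) and 2765 lower (10.9%). Counts of called members in the lists below are to be read beside these shares of all genes. In all, 14.7% of genes had every tumor above both normals and 18.9% had every tumor below both. The median difference over all genes was -0.09. With slide as a block 2313 genes were called (9.12%), 1069 higher (4.22%) and 1244 lower (4.91%). Of the 4842 calls 1651, 34.1% of the calls and 6.51% of all genes tested, were called again in the same direction. Within slide 2, where tumor 3 is the only control tumor and the spread rests on the 2 normals alone (at most 1 residual degree of freedom), 2678 genes were called (10.6%). The count depended on both normals: it was 424 without normal 1 (278 higher, 146 lower) and 705 without normal 2 (285 higher, 420 lower). Leaving out a tumor gave between 2962 (without tumor 7) and 6691 (without tumor 3) calls. Without normal 2 and tumor 3, the arrays with Xist signal, 1155 genes were called, 457 higher and 698 lower. Of the 4842 calls, 268 were called in every fit that left out 1 of the 9 arrays, so most single genes below were called only with both normals in the fit. The split between rises and falls depended on the scaling: with no scaling between arrays 12051 genes were called higher and 490 lower, with the median of all genes at 0.96, and with normexp background correction 1765 were higher and 6685 lower.

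Many, but not all, of the genes that beta-catenin and TCF/LEF factors switch on were higher in the tumors. Of 27 Wnt target and feedback genes tested, 15 rose (8.19% of all genes did) and 1 fell (10.9% of all genes). The other 11 were not called, among them Ccnd1, Cd44, Ephb2, Ephb3, Sox9, Slc12a2, Nkd2, Dkk4 and Tiam1. The median difference was 1.82 against -0.09 over all genes. The largest rises were those of Wif1, which binds Wnt ligands, Dkk2, which acts on the Lrp co-receptors, the transcription factors Sp5 and Prox1, and Nkd1, which acts on Dishevelled. Lef1, the partner of beta-catenin, rose as well, and so did Axin2, Notum, which removes the lipid of Wnt ligands, and Rnf43, which takes Frizzled receptors off the membrane. In whole tissue, a change in the number of cells of a type and a change in RNA per cell cannot be told apart, here and in all results below.

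Sp5 is shown with its promoter because it carries the TCF/LEF core motif near its start. The window is chr2:70474673-70474972 on the plus strand of GRCm38.p6, from RefSeq, 250 bases before to 50 after the gene's start, and the capitals mark the motif CTTTGAT.
Sp5: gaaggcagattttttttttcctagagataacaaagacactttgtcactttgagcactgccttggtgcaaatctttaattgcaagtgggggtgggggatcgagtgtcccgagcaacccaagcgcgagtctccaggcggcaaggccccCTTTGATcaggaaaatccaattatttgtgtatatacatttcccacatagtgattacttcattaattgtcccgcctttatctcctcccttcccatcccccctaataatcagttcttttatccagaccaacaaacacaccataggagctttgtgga
Searched on both strands, the letters CTTTGAT stood in 3 of 25 windows of the 17 listed Wnt genes that had a window (12%), those of Sp5, Tnfrsf19 and Tiam1. They stood in 3.73% of all 32851 mouse windows of this length. The match is a description of the sequence, not a measured site.

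Wif1 was -2.12 and -1.32 in the normals and 2.77 to 5.85 (median 5.01) in the tumors. All 7 tumors lay above both normals, and the difference was 6.32 ± 0.69 (adjusted p = 0.000402). Nkd1 was 0.27 and 0.41 in the normals and 3.26 to 5.85 (median 4.96) in the tumors, a difference of 4.24 ± 0.58 (adjusted p = 0.00152). Dkk2 was -3.71 and -4.59 in the normals and -0.30 to 2.19 (median 1.38) in the tumors, a difference of 5.31 ± 0.58 (adjusted p = 0.000394), and it was well above background in only 1 of the 2 normals. For these 3 genes the gap between the groups was wider than the range of the tumors. Sp5 was -2.55 and -1.57 in the normals and 1.28 to 4.43 (median 3.06) in the tumors, a difference of 4.80 ± 0.69 (adjusted p = 0.00191), and like Wif1, Nkd1 and Dkk2 it was called in all 9 fits that left out an array. Axin2, the scaffold whose transcript is the usual readout of the pathway, was -1.31 and -1.56 in the normals and 0.09 to 2.87 (median 1.76) in the tumors, a difference of 2.98 ± 0.62 (adjusted p = 0.012).

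Notum was 1.50 and 1.53 in the normals and 2.67 to 5.31 (median 4.32) in the tumors, with 2.59 ± 0.56 between the groups (adjusted p = 0.0135), and Rnf43 was 1.77 and 1.87 in the normals and 3.55 to 5.54 (median 4.86) in the tumors, with 2.74 ± 0.47 (adjusted p = 0.0054). No tumor reached down to a normal in either gene. Lef1 was -1.05 and -1.41 in the normals and 0.60 to 3.73 (median 2.27) in the tumors and differed by 3.36 ± 0.69 (adjusted p = 0.0111). Tcf7, its relative, differed by 1.82 ± 0.55 (adjusted p = 0.0407), and Myc, which drives growth and ribosome production, by 1.34 ± 0.33 (adjusted p = 0.0214). Prox1, a homeobox factor also found in lymphatic endothelium, differed by 4.69 ± 0.72 (adjusted p = 0.00285), while Lyve1, a lymphatic endothelial receptor, differed by -1.31 ± 0.27 (adjusted p = 0.0115). Znrf3, Apcdd1, Tnfrsf19 and Sox4 made up the rest of the rises, at 1.87, 4.10, 2.77 and 2.12. Frat2, which binds the kinase Gsk3, was the exception, at 1.04 and 1.74 in the normals and -1.54 to 0.46 (median -0.34) in the tumors, a difference of -1.65 ± 0.46 (adjusted p = 0.0324).

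Among the tumors, tumors 1 and 5 had the lowest Axin2, 0.09 and 0.41, and tumor 6 the highest, 2.87. The same tumor stood highest for Nkd1 (5.85), Notum (5.31) and Lef1 (3.73), and tumor 1 lowest (3.26, 2.67 and 0.60). Wnt10a, a Wnt ligand outside the list and among the genes of largest rise, was -2.57 and -3.55 in the normals and -0.79 to 5.31 (median 3.37) in the tumors. Tumor 1 was again lowest and tumor 6 highest, and the difference was 5.71 ± 1.32 (adjusted p = 0.0169). The 11 genes of the destruction complex and its regulators, among them Apc, Axin1, Gsk3b and Csnk1a1, had no call in either direction and a median of 0.08, and 1 was called lower with slide as a block. Ctnnb1, which encodes beta-catenin, was 4.01 and 4.17 in the normals and 3.97 to 5.17 (median 4.33) in the tumors, so the groups overlapped. With slide as a block 10 Wnt genes were higher and none lower, and 5 were higher without normal 1 and 5 without normal 2. In the microRNA-treated mice the list's median was 1.33, with 4 members called higher and 0 lower, and no member's difference was called different between the groups of mice.

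**Figure D1:**
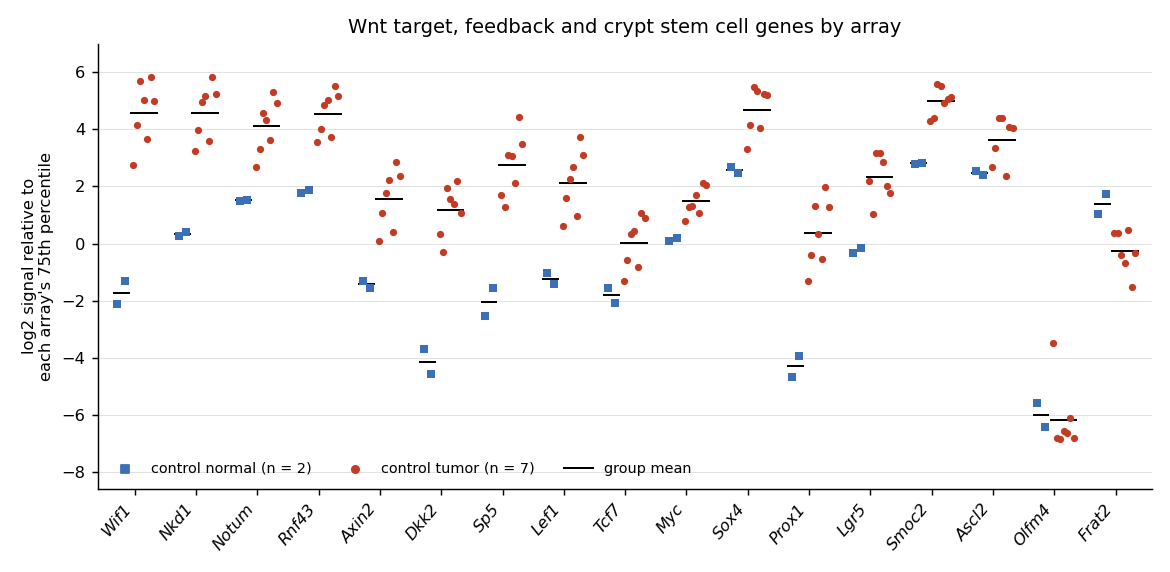
Level of 17 Wnt target, feedback and crypt stem cell genes (log2 signal relative to each array's 75th percentile) in the 2 control normals (squares) and 7 control tumors (circles), with lines at the group means. Wif1 rises from -2.12 and -1.32 in the normals to a tumor median of 5.01, Olfm4 is near the bottom of the scale in both groups, and Frat2 is lower in the tumors.

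Stem cell genes of the crypt base moved less uniformly. Of 15 markers tested, 3 rose (Lgr5, Smoc2 and Axin2) and none fell, with a median of 0.12. Lgr5, the receptor for R-spondins that marks crypt base stem cells, was -0.35 and -0.17 in the normals and 1.05 to 3.19 (median 2.20) in the tumors, a difference of 2.59 ± 0.50 (adjusted p = 0.00884). Smoc2, a secreted matrix protein of the same cells, was 2.79 and 2.84 in the normals and 4.30 to 5.58 (median 5.09) in the tumors, a difference of 2.18 ± 0.34 (adjusted p = 0.00298). Every tumor was above both normals for both genes. Ascl2, the transcription factor of these cells, was 2.53 and 2.41 in the normals and 2.36 to 4.42 (median 4.06) in the tumors and overlapped (adjusted p = 0.12). Olfm4, a marker of small intestinal crypts, was well above background in 0 of 2 normals and 1 of 7 tumors. Without normal 1 0 of the list were called and without normal 2 1.

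Genes that mark fetal or regenerating gut epithelium included more that rose: 9 of 17, and none fell, with a median of 1.30. Spp1, which encodes osteopontin and is also made by macrophages, was not well above background in either normal and was at least 15.2-fold higher in the tumors (adjusted p = 0.00623). Its levels were -5.99 and -6.43 in the normals and -1.72 to 2.57 (median -1.12) in the tumors, highest in tumor 3. Plaur, the urokinase receptor, was -0.29 and -0.28 in the normals and 1.59 to 2.48 (median 2.01) in the tumors, a difference of 2.30 ± 0.27 (adjusted p = 0.000524) called in all 9 fits without an array. Tnfrsf12a, the receptor of the cytokine Tweak, was 0.73 and 0.71 in the normals and 2.13 to 3.40 (median 2.79) in the tumors, a difference of 2.00 ± 0.44 (adjusted p = 0.0146). Clu (clusterin), the alarmin Il33, the matrix protein Ccn1, the keratin Krt7 and the gap junction protein Gja1 were among the other rises, with differences between 0.86 (Gja1) and 1.81 (Clu). The fit blocked by slide called 11 higher, and 1 was without normal 1 or without normal 2.

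Cell cycle genes were modestly higher. Of 25 proliferation genes, 10 rose and none fell, with a median of 0.87, and 17 had every tumor above both normals. Bub1b, a spindle checkpoint kinase, was -1.18 and -1.24 in the normals and -0.29 to 0.76 (median 0.24) in the tumors, a difference of 1.44 ± 0.28 (adjusted p = 0.00933). Top2a, the topoisomerase of dividing cells, was 0.89 and 0.58 in the normals and 1.48 to 2.47 (median 2.21) in the tumors, a difference of 1.31 ± 0.34 (adjusted p = 0.0248). Mki67, the standard proliferation antigen, was 4.34 and 3.66 in the normals and 4.32 to 4.93 (median 4.47) in the tumors; the groups overlapped at normal 1 and the gene was not called (adjusted p = 0.12). Of 18 ribosome biogenesis genes 4 rose (Nop56, Nop2, Wdr43 and Heatr1, by 0.85 to 1.12), none fell, and the median was 0.57. In the fit blocked by slide, 4 proliferation genes and 1 ribosome biogenesis gene were higher, and without either normal none of either list was.

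Of the neutrophil-attracting chemokines tested, 3 of 6 were not well above background in the normals, and all 6 were in every tumor. Cxcl1, Cxcl2 and Cxcl3, ligands of the neutrophil receptor Cxcr2, were not well above background in either normal and were well above it in all 7 tumors. Cxcl5, a further ligand of that receptor, was above background in both groups and higher in the tumors. Of 6 such chemokines tested, these 4 rose and none fell; Ppbp and Pf4, which platelets make, overlapped between the groups.

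The promoters of Cxcl1 and Cxcl2 are shown because both genes went from below background to well above it and both hold the same NF-kB sequence close to their start. Windows are 250 bases before to 50 after the start, on the plus strand of GRCm38.p6, chr5:90890995-90891294 for Cxcl1 and chr5:90903649-90903948 for Cxcl2, from RefSeq. Capitals mark the match to the NF-kB consensus.
Cxcl1: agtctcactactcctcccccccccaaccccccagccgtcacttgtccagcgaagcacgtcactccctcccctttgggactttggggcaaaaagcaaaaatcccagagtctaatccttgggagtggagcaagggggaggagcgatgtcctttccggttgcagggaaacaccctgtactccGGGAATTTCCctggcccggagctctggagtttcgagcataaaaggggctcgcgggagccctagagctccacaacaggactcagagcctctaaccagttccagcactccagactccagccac
Cxcl2: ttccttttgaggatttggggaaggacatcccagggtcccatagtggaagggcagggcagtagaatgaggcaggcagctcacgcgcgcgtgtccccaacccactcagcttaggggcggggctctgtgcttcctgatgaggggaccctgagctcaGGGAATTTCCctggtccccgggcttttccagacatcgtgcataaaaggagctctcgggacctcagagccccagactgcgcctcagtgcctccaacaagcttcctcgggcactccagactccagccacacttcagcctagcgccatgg
The match is GGGAATTTCC in both and in Cxcl3, starting 71, 97 and 73 bases before the start in Cxcl1, Cxcl2 and Cxcl3. The consensus, searched on both strands, stood in 3 of 6 windows of the 6 chemokines that had a window (50%) and in 5.8% of all windows. These chemokine genes lie in a cluster and resemble each other, so their windows are not independent.

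Cxcl1 was -6.20 and -6.51 in the normals and -0.08 to 1.61 (median 0.65) in the tumors, at least 32.5-fold higher in the tumors (adjusted p = 8.6e-06). The tumors were close together and far above both normals. Cxcl2 was at least 4.79-fold higher (adjusted p = 0.000897) and Cxcl3 at least 3.94-fold (adjusted p = 0.00279). Cxcl5 was -1.26 and -2.98 in the normals and 1.91 to 5.70 (median 3.68) in the tumors, a difference of 5.87 ± 0.93 (adjusted p = 0.00341), with tumor 6 highest and tumor 1 lowest. Here, as for every "at least" value, the lower group was set at each array's lowest signal among probes well above background, or at the probe's own signal where that was higher. Genes with such a value could pass the filter on dim probes (well above background in 2 or more arrays) through the higher group alone. Their p-values are therefore a description. Cxcl1, Cxcl2 and Cxcl3 were called in all 9 fits that left out an array.

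Cytokines and other inflammatory mediators rose together: 17 of 21, with 1 fall and a median of 2.76, which was 1.18 with normexp background correction. Il1b, the IL-1 cytokine of activated myeloid cells, was -2.08 and -2.49 in the normals and 1.45 to 2.54 (median 2.19) in the tumors, a difference of 4.30 ± 0.33 (adjusted p = 3.6e-05). Il11, an IL-6 family cytokine made largely by fibroblasts, was -4.32 and -4.83 in the normals and 1.22 to 2.79 (median 1.89) in the tumors, at least 87-fold higher (adjusted p = 1.58e-05). Tnf was at least 15.1-fold higher (adjusted p = 3.96e-05) and Il6 at least 7.67-fold (adjusted p = 0.00408). All tumors exceeded both normals for each of these 4 genes, and the tumors ranged most widely for Il6, from -2.77 to 0.56, median -1.66, with tumor 1 highest. Of the cytokines that maintain type 17 responses, Il17a was at least 3.07-fold and Il23a at least 4.12-fold higher (adjusted p = 0.00407 and 0.00194). Lcn2, a siderophore-binding protein of inflamed epithelium and neutrophils, was -0.79 and -1.07 in the normals and 2.90 to 5.40 (median 4.63) in the tumors, a difference of 5.33 ± 0.55 (adjusted p = 0.000263).

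Il1rl1, the receptor for Il33, was -1.21 and -1.40 in the normals and 1.57 to 4.55 (median 3.64) in the tumors, a difference of 4.87 ± 0.62 (adjusted p = 0.000952). Ptgs2, the inducible cyclo-oxygenase, differed by 2.67 ± 0.53 (adjusted p = 0.00974), and the monocyte chemokine Ccl2 by 3.06 ± 0.39 (adjusted p = 0.000898). Lif, a further IL-6 family cytokine, was the member that fell: it was -3.39 and -3.33 in the normals and -4.42 to -3.92 (median -4.26) in the tumors, a difference of -0.82 ± 0.23 (adjusted p = 0.0329), and it was well above background in 4 of 7 tumors. Nos2, which makes nitric oxide, was -1.25 and -1.24 in the normals and -0.08 to 1.96 (median 0.86) in the tumors, a difference of 2.19 ± 0.48 (adjusted p = 0.0139). In the microRNA-treated mice the normals had 3.38 and 2.67 and the tumors 0.78 and 0.05, a difference of -2.62 (adjusted p = 0.0389). The tumor effect differed between the groups of mice by 4.81 (adjusted p = 0.0264). Blocked by slide, 16 of the list were higher, and 9 and 10 were without normal 1 and without normal 2.

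Neutrophil markers rose for 6 of 11 genes, none fell, and the median was 2.35. With normexp background correction the median was 0.53, against -0.27 over all genes. Csf3r, Mpo, Elane, Camp and Ltf were not called. Mmp9 is counted here and in the metalloproteinase list below, which has the same median, so these lists are not separate results. S100a8, which with S100a9 forms calprotectin and is also made by inflamed epithelium, was -1.83 and -2.68 in the normals and 1.75 to 4.32 (median 3.74) in the tumors, a difference of 5.48 ± 0.76 (adjusted p = 0.00163). S100a9 differed by 5.11 ± 0.66 (adjusted p = 0.00105), and no tumor overlapped a normal for either gene. Cxcr2, the receptor on neutrophils themselves, was at least 4.36-fold higher (adjusted p = 0.00711). The summed level of the list was 120 and 72.5 in the normals and 134 to 214 in the tumors, in units of the 75th percentile. A sum is set mostly by the brightest members. The mean log2 level of the list was -2.41 to -2.11 in the normals and -0.60 to 0.68 in the tumors. Without normal 1 or normal 2 4 members were higher. Macrophage and dendritic cell markers moved less: 4 of 16 rose (Cd14, Itgax, Arg1 and Marco), none fell, and their summed levels, 73.8 and 57.6 in the normals and 61.7 to 91.2 in the tumors, overlapped. With slide as a block 4 were higher, and 0 and 1 were without normal 1 and without normal 2. Arg1, the arginase of alternatively activated myeloid cells, was -2.03 and -3.06 in the normals and -0.67 to 0.99 (median 0.40) in the tumors, a difference of 2.80 ± 0.62 (adjusted p = 0.0147). Of 9 mast cell markers 2 rose: Hdc, the enzyme that makes histamine and is also made by immature neutrophils, was at least 29-fold higher (adjusted p = 0.000673), and the mast cell protease Mcpt2 differed by 2.38 ± 0.77 (adjusted p = 0.0498).

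**Figure D2:**
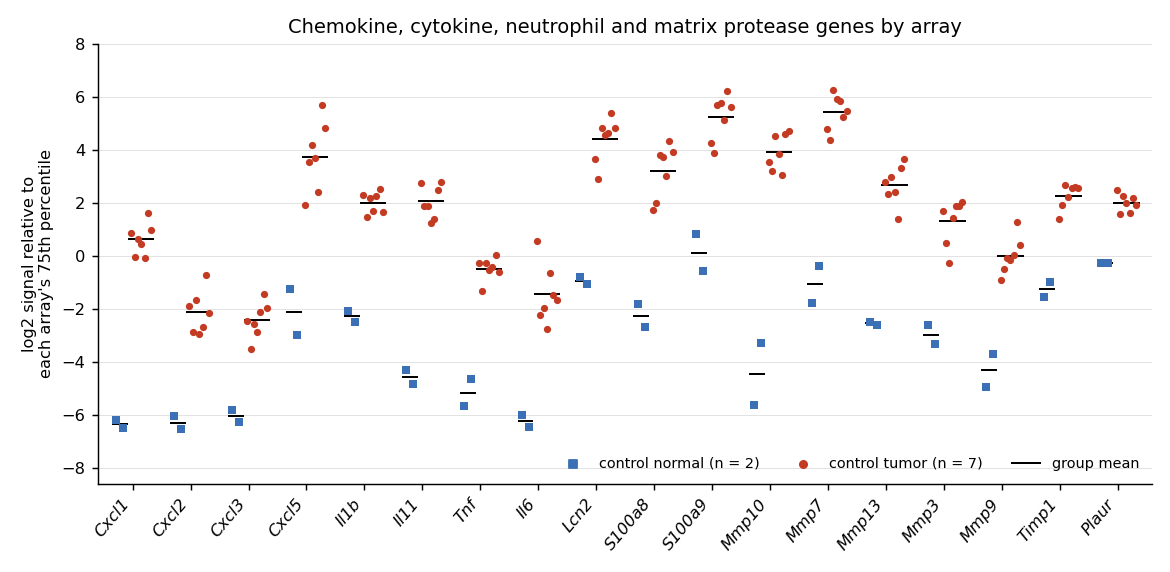
Level of 18 chemokine, cytokine, neutrophil and matrix protease genes (log2 signal relative to each array's 75th percentile) in the 2 control normals (squares) and 7 control tumors (circles), with lines at the group means. Every gene shown has all 7 tumors above both normals, with the widest gap for Mmp10, where the normals are at -5.61 and -3.27 and the lowest tumor is at 3.07.

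Matrix metalloproteinases, secreted or membrane enzymes that cut collagens and other matrix proteins, rose almost throughout. Of 15 genes in that list, which includes their inhibitors the Timps, 12 rose and none fell, with a median of 2.35. Mmp10, a stromelysin, had the largest rise of any gene with a signal above background in both groups. Mmp7 (matrilysin, made by Paneth cells and tumor epithelium), the collagenase Mmp13, the gelatinase Mmp9 and the stromelysin Mmp3 came next in that list, and Mmp15, Timp2 and Timp3 were its uncalled members.

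The promoters of Mmp10, Mmp13, Mmp3 and Mmp7 are shown because these 4 rose and hold the AP-1 motif close to the start. They were picked for the motif: Mmp9, which rose by 4.33, is not among the members that hold it. All lie in the Mmp cluster of chromosome 9, on the plus strand of GRCm38.p6: chr9:7502092-7502391, chr9:7272264-7272563, chr9:7445572-7445871 and chr9:7691840-7692139, from RefSeq, each 250 bases before to 50 after the start. Capitals mark TGAGTCA or, for a match on the other strand, TGACTCA.
Mmp10: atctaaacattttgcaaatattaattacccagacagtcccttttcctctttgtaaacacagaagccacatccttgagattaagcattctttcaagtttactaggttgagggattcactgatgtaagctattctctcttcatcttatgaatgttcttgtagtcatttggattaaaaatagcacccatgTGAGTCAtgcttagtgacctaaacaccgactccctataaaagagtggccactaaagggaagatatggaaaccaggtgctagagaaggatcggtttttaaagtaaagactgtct
Mmp13: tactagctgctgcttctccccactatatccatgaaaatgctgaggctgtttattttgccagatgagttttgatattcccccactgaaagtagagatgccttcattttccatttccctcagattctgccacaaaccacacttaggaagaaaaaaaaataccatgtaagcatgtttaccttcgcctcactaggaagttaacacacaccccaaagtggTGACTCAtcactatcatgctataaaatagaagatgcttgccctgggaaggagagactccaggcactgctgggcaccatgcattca
Mmp3: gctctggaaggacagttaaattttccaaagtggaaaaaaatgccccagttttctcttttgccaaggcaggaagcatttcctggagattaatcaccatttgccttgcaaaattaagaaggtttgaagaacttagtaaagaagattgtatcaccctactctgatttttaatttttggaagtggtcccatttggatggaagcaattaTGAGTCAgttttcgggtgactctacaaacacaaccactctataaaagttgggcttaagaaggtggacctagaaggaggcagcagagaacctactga
Mmp7: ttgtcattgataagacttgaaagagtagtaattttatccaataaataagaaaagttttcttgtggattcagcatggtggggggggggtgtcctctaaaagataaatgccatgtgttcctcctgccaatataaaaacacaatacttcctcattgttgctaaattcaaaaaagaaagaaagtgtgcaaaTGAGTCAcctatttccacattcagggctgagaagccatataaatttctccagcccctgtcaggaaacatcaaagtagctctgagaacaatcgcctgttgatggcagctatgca
The motif TGAGTCA, searched on both strands, stood in 5 of 14 windows of the 12 members with a window (35.7%): these 4 and Mmp12. It began 63, 35, 46, 63 and 44 bases before the start of Mmp10, Mmp13, Mmp3, Mmp7 and Mmp12. Of all windows 5.2% held it. The genes are neighbours of common descent, so these are not independent matches. Jun, which encodes a subunit of AP-1, was 4.34 and 4.39 in the normals and 5.14 to 6.43 (median 5.58) in the tumors and rose by 1.35 ± 0.33 (adjusted p = 0.021), 1 of 2 rises, with Ier3, among 13 immediate early genes; Fos was 1.65 and 1.63 in the normals and 1.11 to 3.95 (median 1.69) in the tumors and was not called (adjusted p = 0.525).

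Mmp10 was -5.61 and -3.27 in the normals and 3.07 to 4.71 (median 3.85) in the tumors, a difference of 8.37 ± 0.72 (adjusted p = 5.82e-05), with a signal well above background in only 1 normal. Mmp7 was -1.77 and -0.39 in the normals and 4.38 to 6.25 (median 5.48) in the tumors, a difference of 6.49 ± 0.52 (adjusted p = 3.96e-05). Mmp13 was -2.49 and -2.61 in the normals and 1.38 to 3.67 (median 2.78) in the tumors, a difference of 5.24 ± 0.58 (adjusted p = 0.000417). For each of them the lowest tumor was more than 3 log2 units above the higher normal, and each was called in all 9 fits that left out an array. Mmp3 was -2.62 and -3.33 in the normals and -0.29 to 2.04 (median 1.70) in the tumors, a difference of 4.28 ± 0.74 (adjusted p = 0.00521), with tumor 3 the lowest. Mmp9 differed by 4.33 ± 0.47 (adjusted p = 0.000394), and Timp1, the inhibitor that tissues induce along with these enzymes, by 3.53 ± 0.41 (adjusted p = 0.000534). In the fit blocked by slide, 10 of the list were higher, and 5 and 6 were without normal 1 and without normal 2.

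Plasmin, which activates several of these enzymes, is made from plasminogen by the proteases Plat and Plau, and Plau acts at the receptor Plaur described above. Of 7 genes of this system 5 rose and none fell, with a median of 2.03. Plat was -1.82 and -2.14 in the normals and 0.71 to 4.28 (median 1.98) in the tumors, a difference of 4.36 ± 0.84 (adjusted p = 0.00868), highest in tumor 6 and lowest in tumor 5. Plau differed by 2.03 ± 0.36 (adjusted p = 0.00601), and Serpine2, an inhibitor of these proteases, by 1.23 ± 0.30 (adjusted p = 0.02), so activators and an inhibitor rose. With slide as a block 4 were higher, and 2 were without normal 1 or without normal 2.

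Of the growth factors that act on the EGF receptor family, 3 of 11 listed ligands and receptors rose and 1 fell, with a median of 0.40. Nrg1, a stromal ligand of Erbb3, was 0.15 and -0.16 in the normals and 1.61 to 2.53 (median 2.26) in the tumors, a difference of 2.18 ± 0.31 (adjusted p = 0.00173), while its receptor Erbb3 differed by -1.05 ± 0.30 (adjusted p = 0.035). Ereg and Epgn rose by 1.45 and 2.15. Activin subunits rose the most among 21 genes of the BMP, TGF-beta and activin family, of which 6 rose and 4 fell. Inhba was -2.45 and -2.23 in the normals and 1.18 to 3.00 (median 2.11) in the tumors, a difference of 4.63 ± 0.50 (adjusted p = 0.00039), and Inhbb differed by 2.74 ± 0.39 (adjusted p = 0.00189). Their antagonist Fst (follistatin) rose by 1.77 ± 0.37. Bmp7, Tgfb1 and Tgfbi rose by 2.11, 1.07 and 1.03. Tgfb3 fell (-0.87). The BMP antagonists Chrdl1 and Nog, which mesenchymal cells make around the crypt base, fell as well, with differences of -2.61 ± 0.55 and -1.68 ± 0.32 (adjusted p = 0.0121 and 0.00819), beside the fall of smooth muscle genes given below, whose part in this was not tested. When slide was a block 3 of that family were higher and 1 lower, and 2 and 0 were without normal 1.

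Part of the collagen genes rose too. Of 16 fibroblast and collagen genes 6 rose, none fell, and the median was 0.47. Col1a1 was 2.80 and 3.16 in the normals and 4.03 to 5.69 (median 5.27) in the tumors, a difference of 2.08 ± 0.42 (adjusted p = 0.0104), and Fn1 (fibronectin) differed by 1.63 ± 0.26 (adjusted p = 0.00339). Col1a2, Col5a1, Pdgfra and Sparc rose by 1.19, 1.49, 0.97 and 0.83. With slide as a block 1 of these was higher, and 0 and 1 were without normal 1 and without normal 2. Endothelial markers had 2 rises (Eng and Prox1) and 2 falls (Cldn5 and Lyve1) among 14, with summed levels of 35.5 and 28.4 in the normals and 26.7 to 34.4 in the tumors. Complement genes had 3 rises (Cfi and the receptors C3ar1 and C5ar1) and 2 falls (Cfd and Cd59a) among 19, with a median of 0.25. Over all genes 8.19% rose and 10.9% fell, so these few calls say little about the endothelial and complement lists.

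Some genes were not well above background in either normal and were bright in every tumor. They were picked for this pattern, so the p-values given for them are a description. The largest lower limits were those of Habp2, Cfi, Il11, Otop2, Lect2, Slc30a2, Cxcl1 and Hdc. Habp2, a serine protease that binds hyaluronan, was -5.71 and -5.68 in the normals and 1.28 to 3.82 (median 2.32) in the tumors, at least 105-fold higher (adjusted p = 5.88e-05). Cfi, the protease that inactivates complement C3b, was -5.92 and -6.40 in the normals and 0.66 to 3.27 (median 2.55) in the tumors, at least 97.1-fold higher (adjusted p = 3.6e-05). Otop2, a proton channel, was at least 70-fold higher (adjusted p = 4.6e-05), Lect2, a secreted protein first known as a chemoattractant, at least 55.8-fold (adjusted p = 0.00122), and the zinc transporter Slc30a2 at least 39.9-fold (adjusted p = 0.00114). All 7 tumors were well above background for these 5 genes. Of the 5, Lect2 varied most between tumors, from -0.37 in tumor 5 to 3.58 in tumor 6. Onecut2, a homeobox factor of the cut family with a signal well above background in 1 normal, was -4.03 and -3.77 in the normals and 0.72 to 4.43 (median 3.95) in the tumors, a difference of 7.14 ± 0.80 (adjusted p = 0.000435). Krt90, a keratin, and Erich3 were at least 26.3-fold and 22.9-fold higher (adjusted p = 4.57e-05 and 0.000417), and R3hdml, with a signal in 1 normal, differed by 5.78 ± 0.65 (adjusted p = 0.000599).

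For Habp2 and Cfi the tumor effect was smaller in the microRNA-treated mice. Their tumor effects there were 1.36 and 1.98, and the differences between the groups of mice, 6.65 and 6.39, were called (adjusted p = 0.0304 and 0.0275). The normals of the microRNA-treated mice had levels of 1.22 and -0.52 for Habp2 and 0.57 and -1.78 for Cfi, above those of the control normals, -5.71 and -5.68 and -5.92 and -6.40. Against those normals the control tumors were higher by 1.97 for Habp2 (adjusted p = 0.0686) and by 2.81 for Cfi (adjusted p = 0.0173). Otop2, Lect2 and Slc30a2 were also higher in those normals than in the control normals. The control tumors exceeded those normals by 3.36, 3.66 and 2.98, each called. In the microRNA-treated mice the tumor effects were 3.47, 3.04 and 2.70, and only that of Otop2 was called (adjusted p = 0.0418). None of these effects was called different between the groups of mice.

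Alpha-defensins, the antimicrobial peptides of Paneth cells, were far higher in the tumors than in the control normals. Paneth cells sit at the base of small intestinal crypts and are not a regular part of the mouse colon. Of 12 Paneth cell genes 8 rose and 1 fell, with a median of 4.32. Defa3 was -0.46 and 0.82 in the normals and 4.92 to 8.27 (median 6.08) in the tumors, a difference of 6.03 ± 0.71 (adjusted p = 0.000565), and Defa5 was -3.26 and -2.83 in the normals and 0.88 to 5.88 (median 2.91) in the tumors, a difference of 6.25 ± 0.93 (adjusted p = 0.00248). Defa23, Defa26 and Defa29 rose by 5.75, 6.56 and 4.23, and Defa27, Defa40, Defa37 and Defa32, outside the list, by 6.12, 5.93, 5.75 and 5.73. Tumor 3 was the highest of the 7 for Defa3 (8.27), Defa5 (5.88) and Defa26 (5.62), and tumor 5 the lowest. The defensin genes are near-identical copies, so a probe may read several of them and the members cannot be counted as separate measurements.

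Pla2g2a, the secreted phospholipase of Paneth cells, was -1.06 and -0.74 in the normals and 2.72 to 4.00 (median 3.62) in the tumors, a difference of 4.42 ± 0.36 (adjusted p = 4.58e-05), and Lyz1, Paneth lysozyme, differed by 2.47 ± 0.58 (adjusted p = 0.0174). Mptx1, a mucosal pentraxin of the colon, was the member that fell: it was 7.81 and 8.04 in the normals and -5.80 to 4.52 (median 0.75) in the tumors, a difference of -7.73 ± 1.93 (adjusted p = 0.0221), with tumor 2 at 4.52 and tumor 5 at -5.80. The defensin result rests on which normal tissue the tumors are set against. In the microRNA-treated mice the tumor effects were -2.62 for Defa3, -4.06 for Defa5 and -7.06 for Defa29, and 5 of the 12 listed genes were called different between the groups of mice. Within the control mice 6 of the list were higher without normal 1 and 6 without normal 2. The normals of the microRNA-treated mice had Defa3 at 9.22 and 8.26 and Defa5 at 7.17 and 6.22. Set against those normals, the control tumors were lower, with differences of -2.53 for Defa3 (adjusted p = 0.0342) and -3.50 for Defa5 (adjusted p = 0.0282), but Mmp7 and Pla2g2a were still higher, by 2.63 and 2.82 (adjusted p = 0.00913 and 0.0011).

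Genes of the small intestine's absorptive cells, which transport bile acids, lipids and sugars, went the other way against the control normals. Of 14 tested 6 fell and none rose, with a median of -2.62, and in the microRNA-treated mice the median was -6.18. In control mice 1 of them was lower with slide as a block, and 0 were without normal 1 or without normal 2. With the control tumors set against the normals of the microRNA-treated mice, both lists had negative medians. There 14 of 14 small intestine genes fell (median -5.47), while 6 of 12 Paneth cell genes fell and 2 rose (median -2.55). Fabp6, the ileal bile acid binding protein, was 1.27 and 2.98 in the normals and -2.27 to 1.93 (median -1.14) in the tumors, a difference of -2.97 ± 0.89 (adjusted p = 0.0387), and tumor 1 overlapped the normals. In the normals of the microRNA-treated mice it was 9.54 and 8.50. Apoa1, an apolipoprotein of enterocytes, was not called in control mice (-0.94 ± 0.55, adjusted p = 0.227), and its tumor effect differed between the groups of mice by 9.04 (adjusted p = 0.00196). The place along the bowel that each normal came from is not labelled, so tissue region and treatment cannot be told apart here.

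Genes of the mature colon surface were lower in most tumors, with few calls. Of 22 colonocyte genes 5 fell (Car2, Car4, Sult1a1, Trpm6 and Slc20a1) and none rose, with a median of -1.72. Car4, a carbonic anhydrase of the brush border, was 4.19 and 4.27 in the normals and 1.41 to 3.74 (median 2.10) in the tumors, a difference of -1.88 ± 0.45 (adjusted p = 0.0188). Trpm6, the magnesium channel, was 2.72 and 3.29 in the normals and -1.85 to 1.64 in the tumors, a difference of -3.52 ± 0.82 (adjusted p = 0.0174). Every tumor was below both normals for these 5 genes. Slc26a3, the chloride and bicarbonate exchanger, and Aqp8, a water channel, also had all tumors below both normals but ranged so widely, from -2.61 to 3.49, median -0.17, and from -1.58 to 5.97, median 2.54, that neither was called (adjusted p = 0.0626 and 0.0905). Car1 was 7.29 and 9.13 in the normals and 1.95 to 8.57 (median 2.81) in the tumors, and tumors 1 and 5, at 8.57 and 7.50, lay within the range of the normals. Without those 2 tumors, a choice made after the values were seen, 13 colonocyte genes were lower and 1 higher. Over all 25356 genes 3797 were then lower. Those tumors were high for Car1, so these counts are a description. With slide as a block 4 colonocyte genes were lower and without either normal none.

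Secretory cell genes fell in part. Of 17 goblet cell genes 4 fell (Clca1, Agr2, Ang4 and St6galnac1), none rose, and the median was -1.48. Clca1, a mucus protein, was 8.44 and 9.34 in the normals and 0.84 to 7.99 (median 4.80) in the tumors, a difference of -4.10 ± 1.32 (adjusted p = 0.0489). Muc2, the main colonic mucin, was 7.13 and 7.74 in the normals and 3.20 to 7.51 (median 6.76) in the tumors; tumors 3 and 6 were low (3.20 and 4.77), tumors 1, 2 and 4 lay within the range of the normals, and the gene was not called (adjusted p = 0.416). Of 15 enteroendocrine genes 4 fell (Sst, Nts, Scg2 and Pcsk1), none rose, and the median was -1.92. Sst, which encodes somatostatin, was 1.88 and 0.28 in the normals and -4.81 to -0.78 (median -2.63) in the tumors, a difference of -3.78 ± 0.90 (adjusted p = 0.0193). Tuft cell genes split, with 2 rises (Avil and Hpgds) and 2 falls (Gfi1b and Ltc4s) among 9. Klf4, a factor of differentiated epithelium, was the 1 call among 16 intestinal identity factors, a difference of -1.55 ± 0.48 (adjusted p = 0.0443). That count is no more than the share of all genes that fell, 10.9%. In the fit blocked by slide, 2 goblet and 2 enteroendocrine genes were lower.

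Metabolic genes of the differentiated epithelium were lower. Of 19 genes that metabolise drugs and other foreign compounds 9 fell and none rose, with a median of -2.93. Gstt1, a glutathione transferase, was 3.50 and 3.50 in the normals and 0.05 to 2.13 (median 1.20) in the tumors, a difference of -2.30 ± 0.42 (adjusted p = 0.00721), and Sult1a1, a sulfotransferase, was 6.55 and 7.15 in the normals and -0.49 to 4.87 (median 1.59) in the tumors, a difference of -4.56 ± 1.22 (adjusted p = 0.0279). Fatty acid oxidation and ketogenesis, which supply colonocytes with energy from butyrate, had 7 falls and no rise among 18 genes, with a median of -1.21. Acadm, the medium-chain acyl-CoA dehydrogenase, was 4.77 and 4.82 in the normals and 2.90 to 3.78 (median 3.41) in the tumors, a difference of -1.47 ± 0.30 (adjusted p = 0.0113), and Hadh differed by -2.10 ± 0.42 (adjusted p = 0.0104). Of 18 oxidative phosphorylation genes 7 fell and none rose, with differences from -0.80 (Atp5a1) to -1.43 (Cox4i1) and a median of -0.76. With no scaling between arrays, where the median of all genes was 0.96, the medians of these lists were -1.87, -0.15 and 0.29, so the last changed sign but stayed under the all-gene median. When slide was a block 4, 2 and 0 were lower. Without tumors 1 and 5, a choice made after the values were seen, 18, 16 and 13 were lower, and 3797 of all genes. Cyp2c55 and Cyp2c65 were highest in those tumors (below), so these counts are a description. Without normal 1 and without normal 2 at most 1 gene of each list was lower.

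Glycolysis genes had a median near 0 (-0.22). Of 20 glycolysis and hypoxia genes 2 rose (Vegfa by 0.92 and Adm by 1.55) and 1 fell (Hk1, -0.80). Of 21 interferon-stimulated genes 3 fell (Oas1a, Irf7 and Ifi27l2a) and none rose, with a median of -0.47 that was 0.58 within slide 2. Over all genes 8.19% rose and 10.9% fell, so the few calls say little about either list. Without scaling the medians of the glycolysis and interferon lists were 0.84 and 0.59, under the median of all genes.

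B cell genes were lower in the tumors, least so in tumor 2. Of 11 B cell markers 9 fell and none rose, with a median of -3.82. Ms4a1 (CD20) was 2.80 and 1.51 in the normals and -6.53 to 0.06 (median -4.37) in the tumors, a difference of -5.99 ± 1.29 (adjusted p = 0.0133); tumor 2 was the highest at 0.06. Cd79b, a chain of the B cell receptor, was 3.60 and 2.48 in the normals and -2.37 to 1.30 (median -0.69) in the tumors, a difference of -3.82 ± 0.71 (adjusted p = 0.00772), again with tumor 2 the highest. The summed level of the list was 31.2 and 14.8 in the control normals, 1.24 to 8.69 in the control tumors, and 4.81 and 4.01 in the normals of the microRNA-treated mice. The microRNA-treated mice had a median tumor effect of -0.14 for the list, no member was called different between the groups of mice, and none was called when the control tumors were set against their normals. With few arrays the test between the groups left a difference of -6.21 for Ms4a1 uncalled (adjusted p = 0.612). Of 16 T and NK cell markers 5 fell (Cd3d, Cd3g, Cd8b1, Cd2 and Nkg7) and 1 rose (Zap70), and of 9 MHC class II genes 4 fell (H2-Aa, H2-DMa, H2-Oa and H2-Ob), of which H2-Oa and H2-Ob are made mainly by B cells. Without scaling the medians of the T and NK cell and MHC class II lists were 0.47 and 0.02, under the median of all genes but not under 0. Of 9 plasma cell markers 1 rose (Prdm1, which other cells make too) and none fell. With the slide block 7 B cell markers, 0 T and NK cell markers and 1 MHC class II gene were lower, and 0 and 2 B cell markers were without normal 1 and without normal 2.

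Smooth muscle genes, which mark the muscle layers of the bowel wall, fell without exception: 15 of 15, with a median of -3.38. Actg2, the enteric smooth muscle actin, was 7.77 and 7.31 in the normals and 2.70 to 5.55 (median 3.87) in the tumors, a difference of -3.51 ± 0.60 (adjusted p = 0.00519). Des (desmin) was 3.24 and 3.25 in the normals and -2.48 to 1.27 (median -1.04) in the tumors, a difference of -4.11 ± 0.84 (adjusted p = 0.0109), and Myh11, the smooth muscle myosin, was 4.67 and 4.10 in the normals and -0.09 to 2.88 (median 0.28) in the tumors, a difference of -3.43 ± 0.80 (adjusted p = 0.0174). Every tumor was below both normals for all 15 genes, and tumors 1 and 2 kept the most, with Actg2 at 5.12 and 5.55. Summed over the list, the level was 1151 and 831 in the control normals and 48.7 to 283 in the control tumors. In the microRNA-treated mice it was 468 and 507 in the normals and 258 and 244 in the tumors, and the median tumor effect there was -1.18, with no member called different between the groups of mice. The CArG motif of smooth muscle promoters, searched by its consensus on both strands, stood in 0 of 12 windows of the 11 members that had a window and in 1.63% of all windows. Blocked by slide, 13 were lower, and 0 and 4 without normal 1 and without normal 2.

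Genes of other cells of the bowel wall fell alongside. Of 15 enteric neuron and glia genes 7 fell and none rose, with a median of -1.53. S100b, a marker of enteric glia, was 0.97 and 0.26 in the normals and -6.61 to -1.49 (median -4.06) in the tumors, a difference of -4.56 ± 1.11 (adjusted p = 0.0203), and Stmn2, a neuronal protein, was 1.85 and 0.47 in the normals and -4.83 to -0.63 (median -2.95) in the tumors, a difference of -3.80 ± 0.91 (adjusted p = 0.0189). Adipocyte genes fell for 9 of 11, with a median of -4.29, the lowest of all lists in control mice. Adipoq (adiponectin) was 0.13 and 1.13 in the normals and -5.69 to -2.77 (median -5.30) in the tumors, a difference of -5.59 ± 0.66 (adjusted p = 0.000575), well above background in 1 of 7 tumors, and Plin1, the coat protein of fat droplets, was at least 7.64-fold lower and below background in all 7 tumors (adjusted p = 0.000707). Cfd (adipsin), a complement protease that fat cells secrete, was 2.76 and 3.96 in the normals and -6.98 to 0.33 (median -5.23) in the tumors, with a fitted difference of -8.13 ± 1.39 (adjusted p = 0.00512). Tumor 1, at 0.33, was the only tumor with a signal well above background for Cfd, so the size of this fall is not exact. In the microRNA-treated mice the median was -5.10 over the adipocyte list. Car3, a carbonic anhydrase of fat and muscle, and Retnla, of fat and myeloid cells, were among the largest falls (-5.89 and -5.86), with 4 and 3 of the 7 tumors well above background. With slide as a block 7 adipocyte and 3 neuron and glia genes were lower; 4 and 0 were without normal 1, and 3 and 3 without normal 2. None of the 5 genes of interstitial cells of Cajal, the pacemaker cells, of 5 exocrine pancreas genes, of 8 red blood cell genes or of 7 Reg family genes was called.

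Skin, hair and skeletal muscle genes, which the wall of the colon is not known to make, were among the largest falls, and both control normals held them. Of 20 skeletal muscle genes 14 fell and 1 rose (Neb), of 22 skin and squamous epithelium genes 11 fell, and of 16 hair keratin genes 10 fell. Krt5, the keratin of basal squamous cells, was 1.51 and 0.50 in the normals and -4.53 to -3.96 (median -4.31) in the tumors, a difference of -5.31 ± 0.25 (adjusted p = 1.91e-06). Krt1, of the cornifying layers, was 1.06 and -1.84 in the normals and -6.77 to -6.16 (median -6.55) in the tumors, at least 19.2-fold lower (adjusted p = 5.4e-05), and the hair gene Krtap19-2 was at least 66.6-fold lower (adjusted p = 7.02e-05). Normal 1 held more of these than normal 2 did. Myh8, a skeletal muscle myosin, was 0.29 and 1.66 in the normals and -6.92 to -5.44 (median -5.64) in the tumors, at least 49.4-fold lower (adjusted p = 1.31e-05), and here normal 2 was the higher.

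Summed levels describe which arrays held this RNA, but a sum can rest on a few bright members. The mean log2 level of the skin list was -1.42 to -0.07 in the control normals and -3.93 to -2.96 in the control tumors. It was -3.72 to -3.62 in the normals of the microRNA-treated mice. By sums, the skin list was at 60 and 24.8 in the control normals, 13.5 to 21.4 in the control tumors and 14.7 and 13.3 in the normals of the microRNA-treated mice. The hair list was at 20.7 and 4.69, 0.87 to 1.24 and 1.18 and 1.3 in the same groups, and the skeletal muscle list at 41.5 and 49.8, 6.79 to 15.7 and 23.1 and 12.8. Skin, hair and skeletal muscle genes could pass the filter on dim probes through the 2 control normals alone, where they are high. Their counts of falls and the p-values given for them, above and next, are therefore a description. The tumor effect was called different between the groups of mice for Krt5 (-5.32, adjusted p = 0.00042), Krt1 (-5.34, adjusted p = 0.0229), Krtap19-2 (-6.92, adjusted p = 0.00944) and Myh8 (-5.72, adjusted p = 0.00712). Of the other genes of largest fall, Myl3, Tnnc2, Ckm and Sln are muscle genes (-6.32, -5.59, -5.12 and -5.36), and Flg and Krtdap are epidermal (-6.74 and -6.62). Of the 7 tumors, 1 was well above background for each of Ckm, Sln, Flg and Krtdap, 2 for Myl3 and 6 for Tnnc2, so the sizes of these falls rest on signals at background. Calm4, Crct1, Krtap22-2, Calml3, Defb6 and Elovl4, which skin and its appendages make, were not well above background in any tumor and at least 23.4-fold (Elovl4) to 50.3-fold (Calm4) lower. The part of this RNA in the other falls, such as those of Stfa1, Fam25c and Bves (-5.58, -5.57 and -5.12, with 4, 2 and 2 tumors well above background), was not tested. Without normal 1 8 skeletal muscle, 8 skin and 6 hair genes were lower, and without normal 2 7, 11 and 9.

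**Figure D3:**
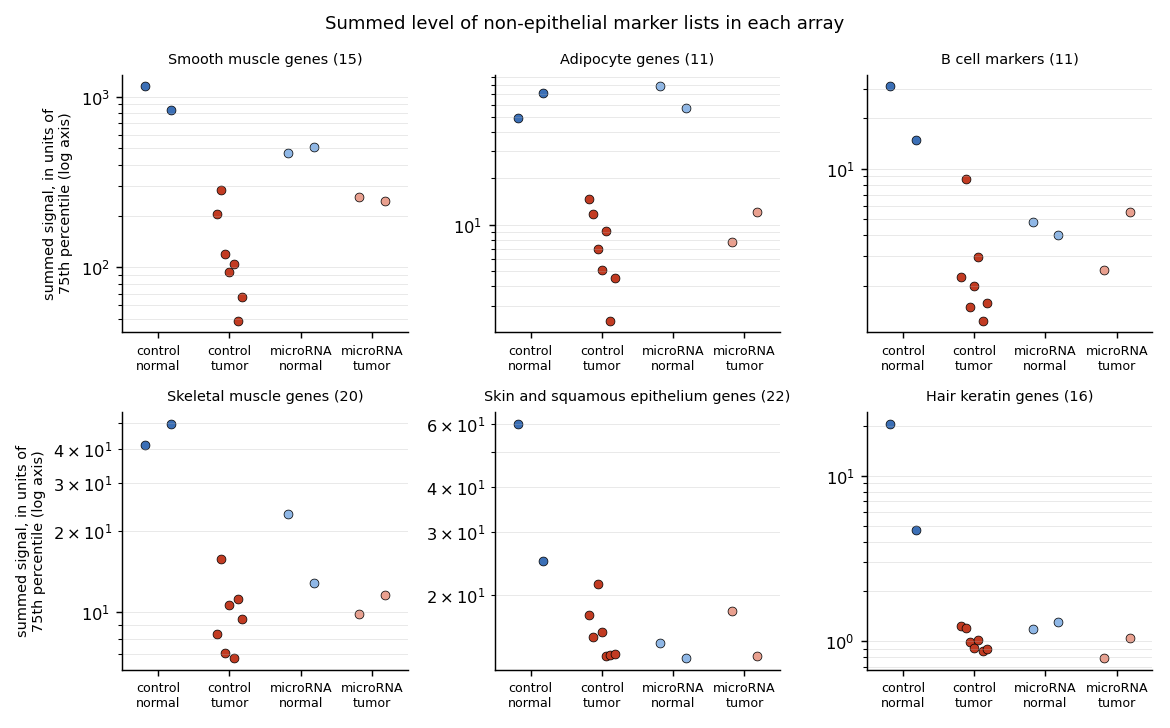
Summed signal of 6 marker lists in each of the 13 arrays, in units of each array's 75th percentile, on log axes; the number in brackets is the genes summed. The control normals are above every control tumor in all 6 panels, and for the skin list the normals of the microRNA-treated mice are at 14.7 and 13.3, within the range of the control tumors or just below it.

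The tumors differed among themselves in genes of position along the bowel. Hoxb13, a homeobox gene of the hindgut's distal end, was -1.57 in tumor 1 and -4.53 in tumor 5 and between 6.25 and 6.63 in the other 5, while the normals had 6.35 and 5.90. Hoxa13, a further posterior Hox gene, was low in the same tumors (-4.76 and -3.73), and Hoxd13 in those and in tumor 4 (-6.40, -6.69 and -6.22). None of 13 posterior Hox genes was called between tumors and normals. Conversely Slc51a, a bile acid exporter subunit, was 4.47 and 3.20 in tumors 1 and 5, 3.00 and 5.07 in the normals, and between -5.74 and -3.67 in the other 5 tumors. Cyp2c55 and Cyp2c65, cytochrome P450 genes, the membrane protein gene Tmigd1, Apol10a and the hormone gene Sct (secretin) were highest in the same 2 tumors. Both normals had Hoxb13 and Slc51a high at once, unlike any of the 7 tumors. Fxyd4 and Thbs4 were low in tumors 1 and 5 (-6.48 and -6.78, -6.24 and -3.83), and Pde6h was high in tumor 3 alone (5.08).

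Without tumors 1 and 5, an alternative chosen after the values were seen, 6559 genes were called, 2762 higher and 3797 lower. The rises of Wnt genes were then 17 of 27 and those of proliferation genes 16 of 25. Cdx2, a homeobox factor of intestinal epithelium, was 4.76 and 5.40 in the normals and -1.23 to 5.57 (median 2.69) in the tumors; tumors 1 and 5 (5.57 and 4.21) were the highest of the 7 and the gene was not called (adjusted p = 0.146). Region along the bowel is not labelled, and it cannot be told apart from other differences between these tumors.

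**Figure D4:**
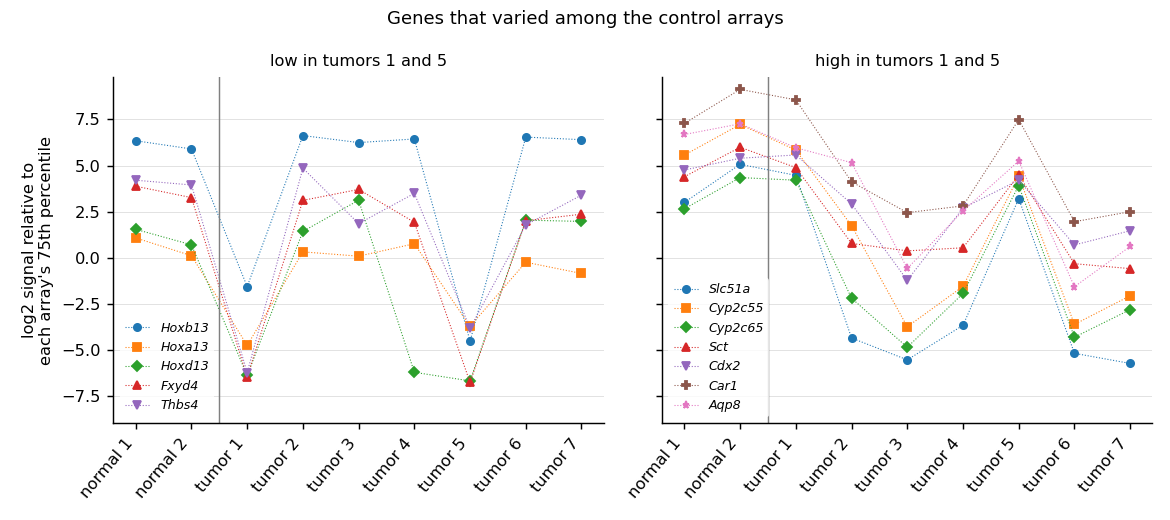
Level of 12 genes (log2 signal relative to each array's 75th percentile) in the 2 control normals and 7 control tumors, left for genes low in tumors 1 and 5 and right for genes high there; dotted lines only join the points of a gene. Hoxb13 is at -1.57 and -4.53 in tumors 1 and 5 and at 5.90 or above in the other 7 arrays, and Slc51a is at 3.00 or above in tumors 1 and 5 and both normals and negative in the other 5 tumors.

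The microRNA-treated mice give the same contrast in 4 other arrays on the same 2 slides. There 792 genes were called (3.12%), from 2 tumors and 2 normals, and 521 of them (65.8%) were also called in the control mice in the same direction, which is 10.8% of the 4842 control calls. In these mice normal 1 and tumor 1 share slide 2 and file number 8, and normal 2 and tumor 2 share slide 1 and file number 2. The count there was 1219 with the replicate number as a block, 1633 with slide as a block and 2301 with the file number as a random block. Of the control calls 93.2% had the same sign in the microRNA-treated mice, against 73.7% of all genes tested. Of the rises described above, Cxcl1 differed by 4.45 there (adjusted p = 0.00178), Il11 by 4.85 (adjusted p = 0.00164), Mmp10 by 6.67 (adjusted p = 0.00349), Inhba by 6.04 (adjusted p = 0.00096) and Dkk2 by 5.07 (adjusted p = 0.005). Wif1 and Nkd1 differed by 3.81 and 3.00 (adjusted p = 0.0382 and 0.049), and Axin2 by 1.78, which was not called (adjusted p = 0.204). In all, 71 genes (0.28%) had a tumor effect called different between the groups of mice, among them the alpha-defensins, skin, hair and muscle genes named above. This test rests on few arrays and left large differences uncalled, such as -6.04 for Hoxb13 (adjusted p = 0.827). An absent call here, or for a list above, therefore does not show that the effects were alike. Set against the 2 normals of the microRNA-treated mice instead of their own, an alternative chosen after the values were seen, the same 7 control tumors had 4348 calls (1566 higher, 2782 lower), and 2552 of the 4842 (52.7%) were called again in the same direction.

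**Figure D5:**
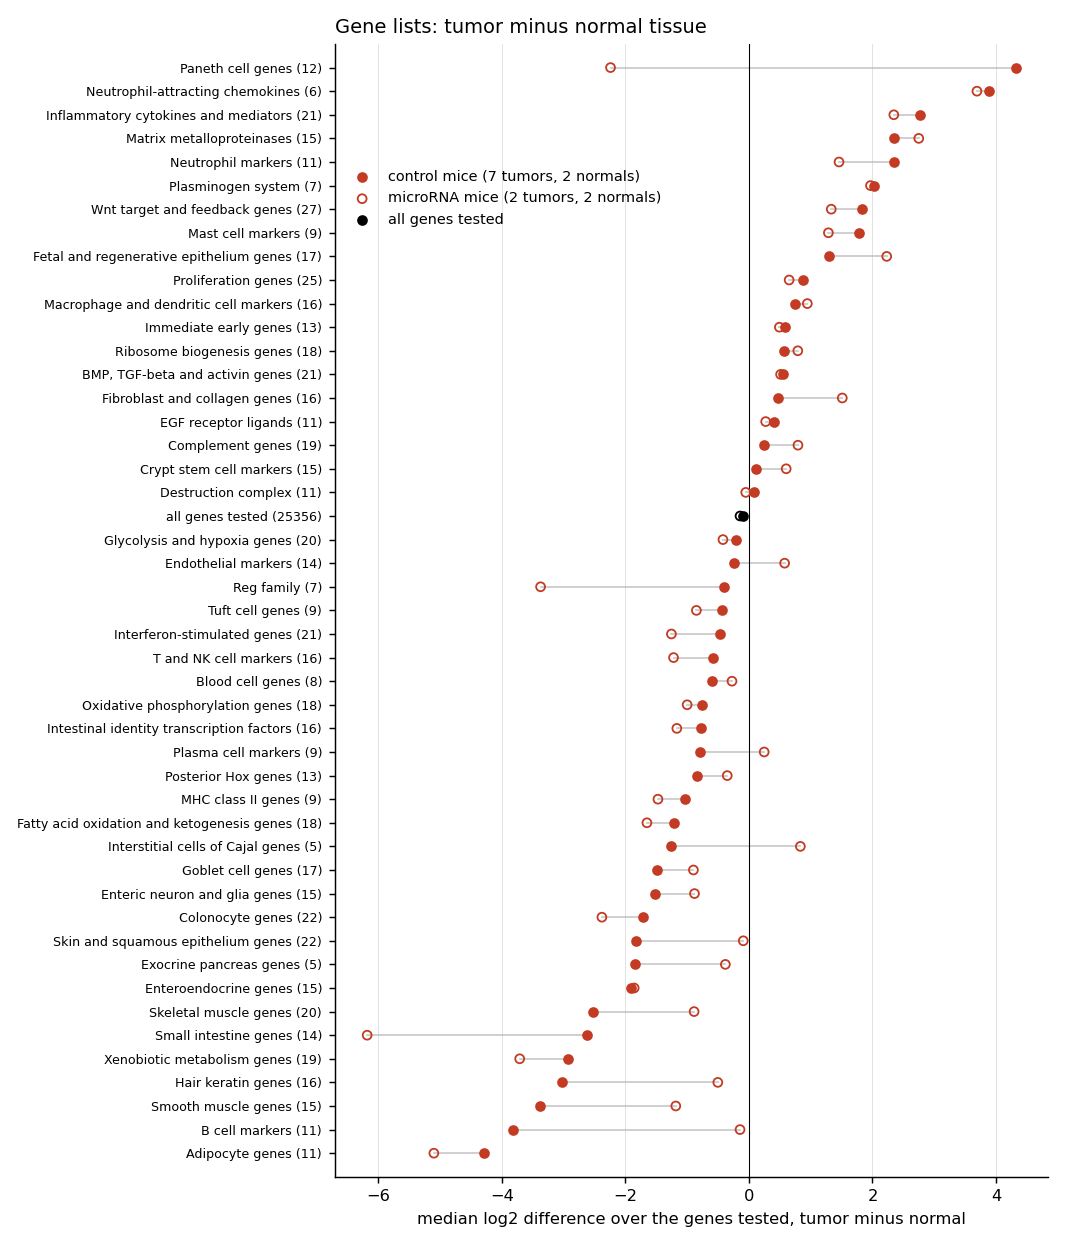
Median log2 difference, tumor minus normal, over the genes tested of each of 46 lists and over all genes, in control mice (filled) and microRNA-treated mice (open); the number in brackets is the genes tested. Chemokines, cytokines, metalloproteinases and Wnt genes are above 0 and adipocyte and xenobiotic genes below 0 in both, and Paneth cell genes are at 4.32 in control mice and -2.24 in microRNA-treated mice.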

How the data were processed

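The 9 arrays named in the report and 4 arrays of microRNA-treated mice are 1-colour Agilent arrays read with Feature Extraction 10.7.3.1, per the file headers. The values used are processed signals, fluorescence intensity on a linear scale that the authors deposited per array, background-corrected by the scanner software per the file headers, with no scaling between arrays; a deposited series table holds the same intensity values. Gene names are those of the array's design, whose genome build is not that of the promoter windows, so no probe coordinates are given.

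Here log2 of the processed signal minus log2 of each array's 75th percentile was used, control spots and outlier spots were left out, and spots of a probe were averaged. Probes that the scanner software called well above background in 2 or more arrays were kept (35181 of 55681), and the brightest kept probe stood for a gene, giving 25356 genes, 16809 with a RefSeq symbol. limma 3.58.1 in R 4.3.3 fitted 4 group means over 13 arrays with eBayes, and p-values were adjusted by Benjamini-Hochberg. The fit was also run on simulated data of these genes and arrays, with 200 genes changed. It recovered 17% of genes changed by 1 on the log2 scale and 58% of those changed by 2, and 1.3% of its calls were false. The simulated noise was independent between arrays, with no effect of slide or file number, so these shares need not hold for the real arrays. Members, gene lists and alternatives were chosen with earlier results of these data known. Genes named are, by rule, the 15 called genes with the largest rise and the 15 with the largest fall among genes measured in both groups, without overlap and called with slide as a block, up to 10 genes each way with the largest lower limits, the 10 genes of largest spread over the tumors, and members of 46 gene lists; some that the rule takes are not reported here, and Xist, Wnt10a's levels within the tumors and the other genes of tumors 1 and 5 were described after their values were seen. Promoter windows and gene symbols came from RefSeq (GRCm38.p6), searched with Python 3.11.15; figures were drawn with matplotlib 3.10.9. Replicate numbers of the titles share only a number in control mice (deviations of same-numbered normals and tumors correlated at -0.14 and -0.09). In the microRNA-treated mice same-numbered arrays also share slide and file number (0.42). With 2 arrays per group the deviations there mirror each other, so both pairs must give this same value and it is 1 measurement. The deviations of the 2 control normals mirror each other too. Alternatives covered background correction, scaling, filters, probes per gene, the arrays fitted, the variance model, a 2-fold minimum, slide, the number in the file names, the replicate number, and leaving out each array; 3 more were added after seeing the data.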

Additional observations from a re-analysis of the deposited data

Results flagged for a closer look

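A tumor stood apart from the other 6 for 17 of the 223 genes checked, its gap to the nearest tumor taking most of the range of the 7. The genes checked are those named, except for uncalled Wnt and neutrophil genes named without a level. The limit of this rule is set so that chance sets about 1 in 20 groups of normally distributed values apart, and that rate was not measured here. Tumor 1 stood apart for Adipoq (level -2.77), Apoa1 (level -4.64), Cfd (level 0.33), Olfm4 (level -3.49) and Plin1 (level -4.52). Tumor 2 stood apart for H2-Ob (level -1.56) and Sln (level -3.42). Tumor 3 stood apart for Eng (level 0.16), Epgn (level -3.80), Pde6h (level 5.08), Tgfb3 (level 0.38), Tnnc2 (level -5.10) and Xist (level 1.97). Tumor 4 stood apart for Fn1 (level 6.97). Tumor 5 stood apart for Calml3 (level -4.57), Flg (level -3.88) and Il1rl1 (level 1.57). Of these genes, Apoa1, Calml3 and Plin1 were not well above background in any of the 7 tumors, and Adipoq, Cfd, Flg, Olfm4, Sln and Xist were in 1 of 7, so these gaps lie partly or wholly among signals at background. Of the 8 lists whose levels were summed, B cell markers stood apart in tumor 2 (summed level 8.69).

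The tumor effect differed between control and microRNA-treated mice, by limma with Benjamini-Hochberg adjustment, for 20 of the genes checked. In log2 units, the control effect minus the microRNA effect was, among alpha-defensins, 8.44 for Defa23, 9.91 for Defa26, 8.66 for Defa27, 11.29 for Defa29, 8.66 for Defa3, 9.02 for Defa32, 9.25 for Defa37, 8.79 for Defa40 and 10.31 for Defa5. The difference was also positive for other genes, 9.04 for Apoa1, 6.39 for Cfi, 6.65 for Habp2 and 4.81 for Nos2. It was negative for skin, hair and muscle genes, -5.23 for Crct1, -4.24 for Defb6, -5.34 for Krt1, -5.32 for Krt5, -6.92 for Krtap19-2, -5.73 for Krtap22-2 and -5.72 for Myh8. Such genes could pass the filter on dim probes through the control normals alone, so these negative values are a description. In all of these the normals of the 2 groups of mice are set against their own tumors, and whether the normals or the treatment set the difference cannot be told apart.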

How the results depend on the processing

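The count of calls moved with either normal, and the balance of rises and falls with the scaling. The 4842 calls in control mice stayed within 1.5 times under 12 of the 18 settings other than those that leave out 1 array. They were 8450 with normexp background correction (6685 lower), 12541 with no scaling between arrays (12051 higher, 490 lower), 2313 with slide as a block (1069 higher, 1244 lower), 2678 within slide 2 (1141 higher, 1537 lower) and 1155 without normal 2 and tumor 3 (457 higher, 698 lower), the last a choice made after seeing the data. Leaving out 1 array at a time gave 424 to 6691 calls, 278 to 2878 higher and 146 to 3813 lower; the lowest were without normal 1 and the highest without tumor 3, and 3128 and 2962 were called without tumors 4 and 7 (1364 and 1310 higher, 1764 and 1652 lower). With the replicate number of the titles as a block, 446 genes were called in control mice (240 higher, 206 lower). There were 1219 in the microRNA-treated mice and 12 for the difference between them. In control mice the numbers share only a number, and the pairs of normal and tumor correlated at -0.14 and -0.09. In the microRNA-treated mice both pairs share a slide, and the correlation was 0.42, a single value that both pairs must share with 2 arrays per group.

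The 792 calls in the microRNA-treated mice were 2474 with normexp, 3080 without scaling, 1535 with no filter on dim probes, 1633 with slide as a block, 2301 with the number in the file names as a random block and 1798 without tumors 1 and 5; leaving out 1 control array gave 555 to 1159, through the shared spread. The 71 genes whose tumor effect differed between the groups of mice were 40 with normexp, and 31 to 91 when 1 control array was left out, 45 and 46 without tumors 4 and 6.

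Of the 223 genes checked, 189 were called, and 20 had a reversed value. Against the normals of the microRNA-treated mice the differences were -2.57 for Defa23, -3.15 for Defa26, -2.40 for Defa27, -6.08 for Defa29, -2.53 for Defa3, -3.24 for Defa32, -3.20 for Defa37, -2.68 for Defa40, -3.50 for Defa5, -0.0795 for Lyz1, -2.08 for Nos2, -0.30 for Tgfbi, 0.57 for Krtap19-2, 1.26 for Stfa1 and 0.0875 for Tgfb3. Without scaling they were 0.26 for Atp5a1, 0.0097 for Erbb3, 0.00532 for H2-DMa, 0.25 for Hk1, 0.23 for Lif and 0.19 for Tgfb3. The cause was not tested, apart from the scaling itself. Medians of 46 lists changed sign in 30 of 1242 cases, 12 of them without scaling. With normexp several medians kept their sign but were smaller in size. The median of the neutrophil-attracting chemokines was 0.96 in place of 3.89, that of the metalloproteinase list 1.46 in place of 2.35, and that of adipocyte genes -2.85 in place of -4.29. Without normal 1 and without normal 2, 119 and 114 of the genes checked lost their call. Genes below background have only a bound.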
